A study of Mus musculus with 27 samples.

Results

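The cGAS-STING pathway genes were 8 of the 31053 genes in single-nucleus RNA-seq count tables of the mouse hippocampus, chosen by their symbols: Cgas (listed under its older symbol Mb21d1), Sting1 (listed as Tmem173), Tbk1, Ikbke, Irf3, Trex1, Samhd1 and Enpp1. All 8 symbols were found. The libraries came from 27 mice, 1 library each, in 6 genotype groups that combined the P301S tau transgene with the Cgas genotype. Of the 9 mice without the transgene, 5 had intact Cgas (Cgas+/+, of which 2 were female), 2 were heterozygous (Cgas+/-) and 2 lacked it (Cgas-/-). Of the 18 with it, 6 each were P301S Cgas+/+, P301S Cgas+/- and P301S Cgas-/-, with 3 of each sex in every such group. P301S mice carry human tau with a dementia-linked mutation under the mouse prion protein promoter, which is active in neurons and in other brain cells, and the Cgas deletion is constitutive, so it is present in every cell of the animal. The mice came from crosses of these lines, and the study used mice for RNA-seq after behavioural tests, with no drug named for these groups. The labels give no strain and no age, the study used adults, and the groups without the transgene were male only where Cgas was heterozygous or deleted.

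Each library held 46091490 to 79484316 unique molecular identifiers (UMIs, 1 for each captured RNA molecule), and 204852 nuclei were kept, 5840 to 12572 per mouse. Nuclei were clustered without the 8 genes and each cluster was named from marker genes of a cell type, written as "like" that type. Levels are given as CPM, the UMIs of a gene in each 1000000 UMIs of a class in a mouse. Microglia-like nuclei numbered 214 to 1194 per mouse, with 266686 to 1884149 UMIs. In these nuclei all 10 markers of microglia were present, summing to 9947 to 12649 CPM in the 9 mice without the transgene and 6976 to 11583 CPM in the 18 P301S mice. Prn, a readthrough gene at the prion protein locus, followed the labels. It was at 0.713 to 1.34 CPM in excitatory neuron-like nuclei of the mice without the transgene and at 1.84 to 3.76 CPM in those of the P301S mice. One library stood apart, P301S Cgas+/+ replicate 3, which gave 62.6% of the largest cluster that could not be named. Of its own kept nuclei 51.4% stayed unnamed, and its median of 2225 UMIs per barcode was the lowest of all libraries.

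Cgas senses double-stranded DNA in the cytosol and makes the cyclic dinucleotide cGAMP, which binds Sting1 on the endoplasmic reticulum. Sting1 then moves to the Golgi and recruits the kinase Tbk1, and its relative Ikbke, which phosphorylate the transcription factor Irf3, and Irf3 drives type I interferon and antiviral genes. Other members restrain the pathway. Trex1 degrades cytosolic DNA, Samhd1 breaks down deoxynucleotides and limits the release of DNA from stalled replication forks, and Enpp1 hydrolyses cGAMP outside the cell. In the brain the pathway is best known in microglia, the resident macrophages.

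By gene span (GRCm38), Cgas lies at chr9:78430526-78443237, Tbk1 at chr10:121546455-121586787, Ikbke at chr1:131254343-131279606, Irf3 at chr7:44997648-45002848, Trex1 at chr9:109057933-109059734, Samhd1 at chr2:157097533-157135265 and Enpp1 at chr10:24637914-24712159. The position of Sting1 is not printed. Irf3 is on the plus strand and the other 7 are on the minus strand. Trex1 lies wholly within Atrip on the same strand. Irf3 overlaps Bcl2l12 on the opposite strand, and Ikbke overlaps the antisense genes Gm28914 and Gm28913. Cgas overlaps the pseudogene Gm8093 on the opposite strand, which is not among the genes counted.

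The promoters of the 4 members that were higher in microglia-like nuclei of P301S mice are given here from RefSeq (GRCm38.p6), each from 250 bases before to 50 bases after the gene start, 5′ to 3′ on the strand of the gene. They lie at chr9:78443188-78443487 for Cgas, chr1:131279514-131279813 for Ikbke, chr2:157135047-157135346 for Samhd1 and chr10:24712110-24712409 for Enpp1, all on the minus strand. RefSeq promoters matched 7 of the 8 members, with none for Sting1. Capitals mark the motifs found.
Cgas promoter: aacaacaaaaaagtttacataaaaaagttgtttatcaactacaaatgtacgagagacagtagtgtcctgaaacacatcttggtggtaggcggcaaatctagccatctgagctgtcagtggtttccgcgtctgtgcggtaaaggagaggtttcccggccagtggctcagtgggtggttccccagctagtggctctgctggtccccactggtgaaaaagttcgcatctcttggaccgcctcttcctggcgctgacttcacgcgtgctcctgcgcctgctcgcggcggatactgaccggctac
Ikbke promoter: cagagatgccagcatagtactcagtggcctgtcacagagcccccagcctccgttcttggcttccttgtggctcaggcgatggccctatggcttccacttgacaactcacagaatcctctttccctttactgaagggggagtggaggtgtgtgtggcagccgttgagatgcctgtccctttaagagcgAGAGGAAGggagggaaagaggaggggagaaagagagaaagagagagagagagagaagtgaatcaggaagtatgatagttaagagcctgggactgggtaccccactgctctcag
Samhd1 promoter: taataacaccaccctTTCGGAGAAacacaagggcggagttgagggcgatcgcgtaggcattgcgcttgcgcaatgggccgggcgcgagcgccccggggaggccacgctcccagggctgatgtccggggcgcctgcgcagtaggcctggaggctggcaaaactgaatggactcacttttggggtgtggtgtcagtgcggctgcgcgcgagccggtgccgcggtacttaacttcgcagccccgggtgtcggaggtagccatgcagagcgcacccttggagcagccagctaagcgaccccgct
Enpp1 promoter: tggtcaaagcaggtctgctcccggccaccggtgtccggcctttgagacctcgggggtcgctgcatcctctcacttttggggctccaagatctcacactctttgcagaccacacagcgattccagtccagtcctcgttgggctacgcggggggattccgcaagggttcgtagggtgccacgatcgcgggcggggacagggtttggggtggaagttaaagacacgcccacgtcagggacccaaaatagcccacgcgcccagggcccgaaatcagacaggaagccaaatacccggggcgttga
Both strands were searched for the interferon-stimulated response element, searched as a pair of GAAA with any 2 bases between, the STAT site TTCNNNGAA and the macrophage factor PU.1's AGAGGAAG. Of 32851 promoters of this length, 3.44% held the first, 8.30% the second and 4.55% the third. Ikbke held the PU.1 letters, beginning 63 bases before the start, and Samhd1 held the STAT letters, beginning 235 bases before the start. None of the 3 was present in the windows of Cgas, Tbk1, Irf3, Trex1 or Enpp1.

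Cgas, the targeted gene, was measured first in every library. In microglia-like nuclei it was at 34.0, 37.2, 35.9, 32.4 and 33.9 CPM in the libraries labelled Cgas+/+, at 22.5 and 16.1 CPM in those labelled Cgas+/-, and at 33.2 and 22.1 CPM in those labelled Cgas-/-. With the transgene it ranged from 26.5 to 56.9 CPM (median 36.8) in P301S Cgas+/+, from 28.2 to 60.2 CPM (median 44.9) in P301S Cgas+/- and from 40.7 to 58.6 CPM (median 50.3) in P301S Cgas-/-. The 6 libraries labelled P301S Cgas-/- were thus not low in Cgas RNA. Of the Cgas-/- libraries without the transgene, replicate 1 was within the range of Cgas+/+ and replicate 2 was below it. Which exons the deletion removes is not given in the sources used here and UMIs do not show which part of a transcript they came from, so this level does not check the deletion, and Cgas genotypes below are as labelled.

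Across cell types the pathway was uneven, and its sensor and adaptor were highest in microglia-like nuclei. Cgas averaged 39.2 ± 12.04 CPM there (SD, n = 27 mice), 11.4 ± 13.2 CPM in pericyte or smooth muscle-like nuclei (n = 22 mice with at least 20 such nuclei) and 1.36 ± 0.388 CPM in excitatory neuron-like nuclei (n = 27). Microglia-like nuclei exceeded pericyte or smooth muscle-like nuclei in 20 of 22 mice. In the other 11 classes Cgas averaged 0.188 to 4.94 CPM. Sting1 averaged 34.9 ± 12.1 CPM in microglia-like nuclei and 17.0 ± 22.8 CPM in T cell-like nuclei (n = 4), a pair that did not differ beyond the spread. The 4 mice with enough T cell-like nuclei all carried the transgene (3 P301S Cgas+/+ and 1 P301S Cgas-/-). Levels of that class, here and below, therefore hold for P301S mice only. In astrocyte-like nuclei Sting1 averaged 0.579 ± 0.309 CPM (n = 27), in excitatory neuron-like nuclei 0.0572 ± 0.0381 CPM (n = 27), and it had 0 UMIs in Cajal-Retzius-like, endothelial-like and ependymal-like nuclei, for which 3 counts over the class would be 2.28, 1.73 and 1.15 CPM.

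The kinases and the transcription factor were more evenly spread. Tbk1 was present in all 14 classes with enough nuclei to average over mice. It ranged from 146 ± 40.4 CPM in T cell-like (P301S mice only) and 146 ± 18.6 CPM in microglia-like nuclei down to 45.2 ± 5.56 CPM in inhibitory neuron-like nuclei (n = 27). Oligodendrocyte-like nuclei (70.1 ± 6.27 CPM) exceeded astrocyte-like nuclei (54.5 ± 7.61 CPM) in 27 of 27 mice, while the other neighbours in the order overlapped within 1 SD. Ikbke was selective: it was highest in T cell-like nuclei (106 ± 54.6 CPM, P301S mice only). Next in order were ependymal-like (45.7 ± 11.2, n = 14), fibroblast-like (29.4 ± 21.5, n = 11), microglia-like (17.1 ± 20.4) and astrocyte-like nuclei (13.3 ± 4.53 CPM). The ranks of T cell-like nuclei thus mix cell type with the transgene. None of these neighbouring pairs differed beyond the spread, and in the last pair microglia-like nuclei were higher in 10 of 27 mice (medians 6.23 and 12.9 CPM). Without the transgene Ikbke averaged 1.64 ± 1.72 CPM in microglia-like and 11.3 ± 2.59 CPM in astrocyte-like nuclei (n = 9), apart beyond the spread. With it the means were 24.8 ± 21.1 and 14.3 ± 4.99 CPM (n = 18), which overlapped, and the change in order was not tested. In excitatory neuron-like nuclei Ikbke was at 0.667 ± 0.207 CPM. Irf3 was at 30.5 ± 8.83 CPM in microglia-like and 28.7 ± 5.75 CPM in astrocyte-like nuclei, and at its lowest in excitatory neuron-like nuclei, 7.04 ± 1.73 CPM.

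Among the restraining genes, Samhd1 was, over the same 14 classes, highest in T cell-like (345 ± 128 CPM, P301S mice only), endothelial-like (147 ± 65.5, n = 19) and microglia-like nuclei (120 ± 39.4 CPM), and lowest in excitatory neuron-like nuclei (8.84 ± 1.37 CPM). Enpp1 was at 206 ± 103 CPM in fibroblast-like nuclei, above the level in oligodendrocyte-like nuclei (22.6 ± 5.97 CPM) in 11 of 11 mice. It was at 13.8 ± 10.2 CPM in microglia-like nuclei and below 1 CPM in astrocyte-like and excitatory neuron-like nuclei (0.495 ± 0.393 and 0.554 ± 0.221 CPM). Trex1 had 0 UMIs in all 221281 nuclei that passed the filter, out of 1257035931 UMIs, where 3 counts would be 0.00239 CPM. Trex1 lies within another gene on the same strand, and how reads shared by both were counted was not tested, so the 0 holds for this counting only. Per kilobase of gene span, the levels in microglia-like nuclei were 5.86 CPM for Irf3, 5.07 for Sting1, 3.62 for Tbk1, 3.19 for Samhd1, 3.09 for Cgas, 0.676 for Ikbke and 0.186 for Enpp1. A UMI stands for 1 captured molecule, so this order by span is not an order of RNA abundance.

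**Figure D1:**
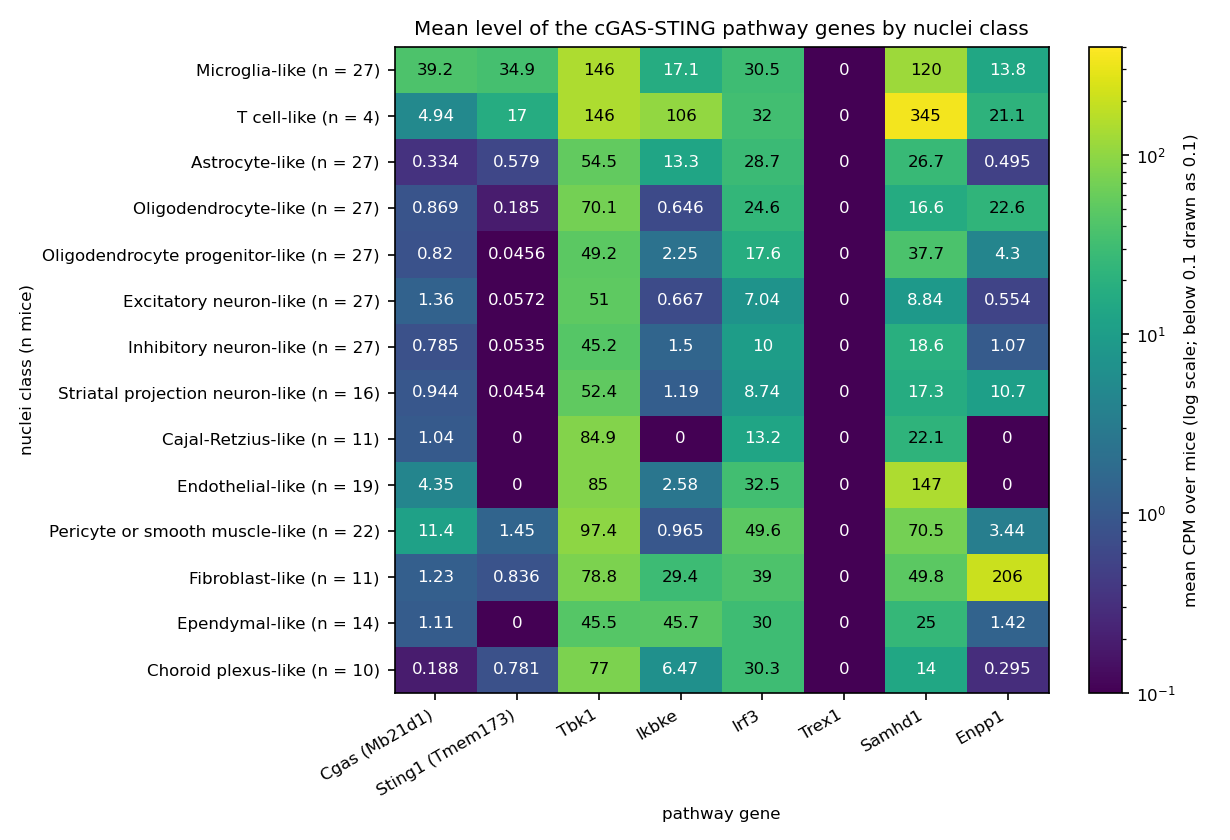
Mean level of the 8 pathway genes (columns) in 14 nuclei classes (rows, with the number of mice that had at least 20 nuclei), as CPM averaged over mice, printed in each cell and coloured on a log scale. Cgas and Sting1 stand highest in microglia-like nuclei, at 39.2 and 34.9 CPM, Enpp1 in fibroblast-like nuclei, at 206 CPM, and Trex1 is at 0 throughout. The row of T cell-like nuclei comes from P301S mice only.

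To ask what tau pathology changes in these genes, the 3 P301S groups were compared with the 3 groups without the transgene (the tau effect, over 27 mice, as the mean of the 3 Cgas genotypes). In microglia-like nuclei 5 of the 7 detected members changed: Ikbke, Enpp1, Cgas and Samhd1 rose, Sting1 fell, and Tbk1 and Irf3 did not pass the test. For Cgas the mean includes the groups in which Cgas itself is heterozygous or deleted, and its values by genotype are given below. Of 9625 genes tested in these nuclei 1176 passed, or 12.2% (8.41% higher and 3.81% lower), by edgeR's quasi-likelihood test with Benjamini-Hochberg adjustment over all genes and sex as a covariate. The count depends on single mice of the small groups: it was 290 without Cgas+/- replicate 2, and 561 and 671 without Cgas-/- replicates 1 and 2, so the share over all genes used below varies with these mice. Log2 fold changes below are from this fit, with standard errors. All 7 members had passed the filter on low counts, which asked for 16.1 CPM in at least 2 mice. Ikbke and Enpp1 reached that in none of the 9 mice without the transgene and in 10 and 8 of the 18 P301S mice, so they were tested only because of the P301S mice, and the count of 5 supports nothing about the members as a set. Of the marker lists of other cell types summed in the same nuclei, the oligodendrocyte list (9 of 9 detected) was at 262 to 534 CPM (median 330) without and 295 to 668 CPM (median 524) with the transgene, the endothelial list (8 of 8) at 31.2 to 81.6 and 9.53 to 289 CPM, and the excitatory neuron list (7 of 7) at 370 to 706 and 254 to 639 CPM. The border-associated macrophage list (5 of 7, with Pf4 and Lyve1 at 0) was at 176 to 330 (median 245) and 90.8 to 283 CPM (median 171), and the median of the microglia list itself was 10852 and 9379 CPM. The T cell list (6 of 6) was at 2.48 to 14.7 and 0 to 19.7 CPM. Their part in the results was not tested.

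Ikbke, the inducible relative of Tbk1, was nearly absent from microglia-like nuclei without the transgene. It was at 0, 0, 0, 2.94 and 3.99 CPM in Cgas+/+, 0 and 3.23 CPM in Cgas+/-, and 1.23 and 3.401 CPM in Cgas-/-. In P301S mice it ranged from 0 to 63.5 CPM (median 21.8) in Cgas+/+, from 3.18 to 52.6 CPM (median 20.3) in Cgas+/- and from 4.27 to 50.4 CPM (median 13.9) in Cgas-/-. Of the 18 P301S mice 16 lay above all 9 others, and the 2 that did not were P301S Cgas+/+ replicate 2, at 0 CPM, and P301S Cgas+/- replicate 6, at 3.18 CPM. Of the 16, P301S Cgas-/- replicates 6 and 3 were only just above, at 4.27 and 4.98 CPM beside 3.99 CPM in Cgas+/+ replicate 5. The log2 fold change was 3.85 ± 0.925 (edgeR adjusted p = 0.0103). Only P301S mice brought Ikbke past the filter. DESeq2, fitted to every gene with at least 1 UMI, gave 3.95 (adjusted p = 0.000333). Its adjustment also filters by default on the mean count over all mice, so it does not remove this dependence on the P301S mice. Pooled over mice, 460 UMIs against 8 gave a ratio of 16.5 with an exact 95% counting interval of 8.30 to 38.4. Only without Cgas+/- replicate 2, of the 27 mice left out in turn, was the call lost (5.10, adjusted p = 0.0622).

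Enpp1, the cGAMP hydrolase, was at 2.43, 4.96, 7.19, 2.94 and 3.99 CPM in Cgas+/+, 14.999 and 4.84 CPM in Cgas+/-, and 6.15 and 8.50 CPM in Cgas-/-. In P301S mice it ranged from 6.23 to 32.8 CPM (median 18.3) in Cgas+/+, from 9.53 to 32.5 CPM (median 13.7) in Cgas+/- and from 2.49 to 31.7 CPM (median 14.3) in Cgas-/-. The groups overlapped, with 9 of 18 P301S mice above all 9 others. The difference was 1.62 ± 0.438 on the log2 scale (edgeR adjusted p = 0.0168). Enpp1 too passed the filter through P301S mice only, and DESeq2, fitted to every gene with at least 1 UMI, gave 1.54 (adjusted p = 0.0136). The filter on mean count within DESeq2 leaves the same dependence on the P301S mice. The call was lost without Cgas+/- replicate 2 (1.33, adjusted p = 0.123) or Cgas-/- replicate 1 (1.55, adjusted p = 0.0662).

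Cgas averaged 44.0 ± 11.1 CPM in the 18 P301S mice and 29.7 ± 7.45 CPM in the 9 others (the values by library are above), and 13 of 18 P301S mice lay above all 9. The log2 fold change was 0.73 ± 0.178 (edgeR adjusted p = 0.00861), and it was 0.63 with an adjusted p of 0.1004 without Cgas+/- replicate 2. Means with and without the transgene were 38.2 and 34.7 CPM in Cgas+/+, 42.9 and 19.3 CPM in Cgas+/-, and 51.0 and 27.7 CPM in Cgas-/-. With Cgas intact the difference was thus small, 0.14 ± 0.222 in the tau contrast below (95% interval -0.30 to 0.57). The averaged rise came largely from the other genotypes, with 2 mice each without the transgene. The 3 lowest of the 27 libraries were males with heterozygous or deleted Cgas and no transgene.

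Samhd1 was at 97.1, 81.9, 55.1, 127 and 87.8 CPM in Cgas+/+, 131 and 75.9 CPM in Cgas+/-, and 88.6 and 95.2 CPM in Cgas-/-. In P301S mice it ranged from 94.8 to 222 CPM (median 144) in Cgas+/+, from 83.2 to 167 CPM (median 115) in Cgas+/- and from 105 to 206 CPM (median 121) in Cgas-/-. Of the 18 P301S libraries 9 were above all 9 others, and the rest overlapped with them. Samhd1 rose by a log2 fold change of 0.58 ± 0.173 (edgeR adjusted p = 0.0262). The call was lost when any of 6 mice was left out (P301S Cgas+/+ replicate 1, P301S Cgas+/- replicate 2, P301S Cgas-/- replicate 2, Cgas+/- replicate 2 or either Cgas-/- mouse), with values of 0.44 to 0.60 and a highest adjusted p of 0.198. It was also lost when likely doublets were kept.

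Sting1, the adaptor, was the only member that fell. It was at 46.1, 59.6, 35.9, 64.7 and 35.9 CPM in Cgas+/+, 37.5 and 42.0 CPM in Cgas+/-, and 36.9 and 35.7 CPM in Cgas-/-. In P301S mice it ranged from 18.3 to 40.4 CPM (median 30.9) in Cgas+/+, from 15.9 to 49.4 CPM (median 31.9) in Cgas+/- and from 15.5 to 44.8 CPM (median 29.96) in Cgas-/-. Of the 18 P301S mice 13 lay below all 9 others. The log2 fold change was -0.60 ± 0.197 (edgeR adjusted p = 0.0453), close to the threshold. The call was lost without any of 11 of the 27 mice (Cgas+/+ replicate 1, 2 or 4, all 4 Cgas+/- and Cgas-/- mice without the transgene, P301S Cgas+/+ replicate 1, P301S Cgas+/- replicate 3, and P301S Cgas-/- replicates 1 and 5), with values of -0.54 to -0.63 and adjusted p of up to 0.197. It was also lost without the sex term (-0.44, adjusted p = 0.142) and with the software version of the count tables as a term (-0.54, adjusted p = 0.0965).

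Tbk1, the kinase that STING recruits, was at 150 ± 17.7 CPM in the 9 mice without the transgene and 144 ± 19.2 CPM in the 18 P301S mice (log2 fold change -0.05 ± 0.0903, 95% interval -0.23 to 0.12, edgeR adjusted p = 0.819). Irf3 was at 25.2 ± 6.71 and 33.1 ± 8.72 CPM, with 8 of 18 P301S mice above all 9 others (0.38 ± 0.204, 95% interval -0.02 to 0.78, edgeR adjusted p = 0.243). The 2 software versions named in the headers of the count tables, 3.0.2 (12 libraries, all male) and 3.1.0 (15 libraries), were examined separately, since the Cgas+/- and Cgas-/- groups without the transgene were wholly 3.0.2. Each of the 5 members that passed kept its direction in both. Ikbke was at 1.31 ± 1.63 against 24.9 ± 16.7 CPM (6 and 6 mice) in the first set and 2.31 ± 2.07 against 24.8 ± 23.7 CPM (3 and 12 mice) in the second, and Sting1 at 43.0 ± 9.01 against 27.3 ± 6.84 CPM and 45.5 ± 16.6 against 31.9 ± 11.3 CPM. Cgas was at 27.5 ± 8.39 against 49.4 ± 11.8 CPM in the first set and 34.1 ± 1.79 against 41.3 ± 10.2 CPM in the second. In the second set the mice without the transgene were all Cgas+/+, while the P301S mice spanned the 3 Cgas genotypes. Among Cgas+/+ mice alone, Cgas was at 35.6 ± 2.30 against 37.0 ± 9.10 CPM in the first set (n = 2 each). In the second set it was at 34.1 ± 1.79 against 38.8 ± 14.1 CPM (n = 3 and 4).

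**Figure D2:**
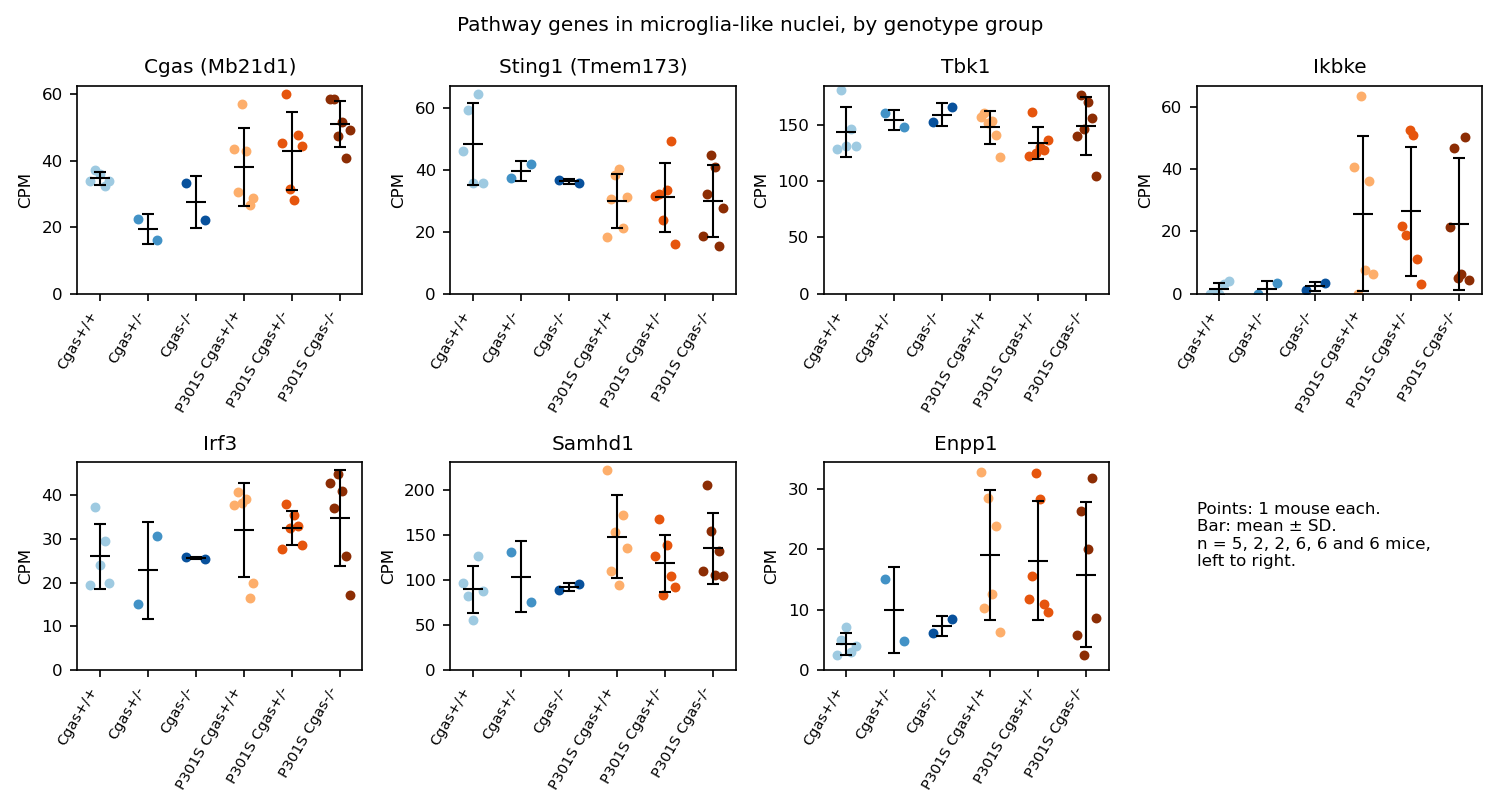
Level in CPM (vertical axes) of 7 pathway genes in microglia-like nuclei of each mouse, by genotype group (horizontal axes), with 1 point per mouse and bars for the mean ± SD. Ikbke stays at or below 3.99 CPM in the 9 mice without the transgene and reaches 63.5 CPM with it, while Tbk1 overlaps throughout.

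Among Cgas+/+ mice alone, the tau contrast (6 P301S Cgas+/+ against 5 Cgas+/+ mice, in a fit of the 23 mice of the 4 larger groups) gave fold changes of similar size for Ikbke, Enpp1, Samhd1 and Sting1 but no calls. Of 9091 genes in microglia-like nuclei edgeR called 0 (0.0%), with 1478 (16.3%) at an unadjusted p under 0.05, while DESeq2 called 294. The log2 fold change was 4.20 ± 1.38 for Ikbke (edgeR adjusted p = 0.135), 2.18 ± 0.658 for Enpp1 (0.0984), 0.77 ± 0.228 for Samhd1 (0.0959) and -0.75 ± 0.267 for Sting1 (0.153). Pooled, Ikbke had 179 UMIs against 3, a ratio of 20.6 with an exact 95% counting interval of 6.92 to 101. Cgas, at 38.2 ± 11.7 and 34.7 ± 1.90 CPM, differed by 0.14 ± 0.222 (95% interval -0.30 to 0.57, edgeR adjusted p = 0.812), a value that turned to -0.00881 without P301S Cgas+/+ replicate 3. Without P301S Cgas+/+ replicate 2 edgeR called 450 genes, among them Ikbke (4.52, adjusted p = 0.0416), Samhd1 (0.86, adjusted p = 0.0318) and Enpp1 (2.32, adjusted p = 0.0421). That mouse had the lowest Ikbke of its group, at 0 CPM, and Ikbke and Enpp1 depend on P301S mice to be tested. These calls are therefore not independent support for the tau contrast. DESeq2 gave an adjusted p of 0.0207 for Ikbke and 0.0464 for Enpp1, where the range over all alternatives was 9.58e-14 to 0.142 and 4.97e-05 to 0.107.

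**Figure D3:**
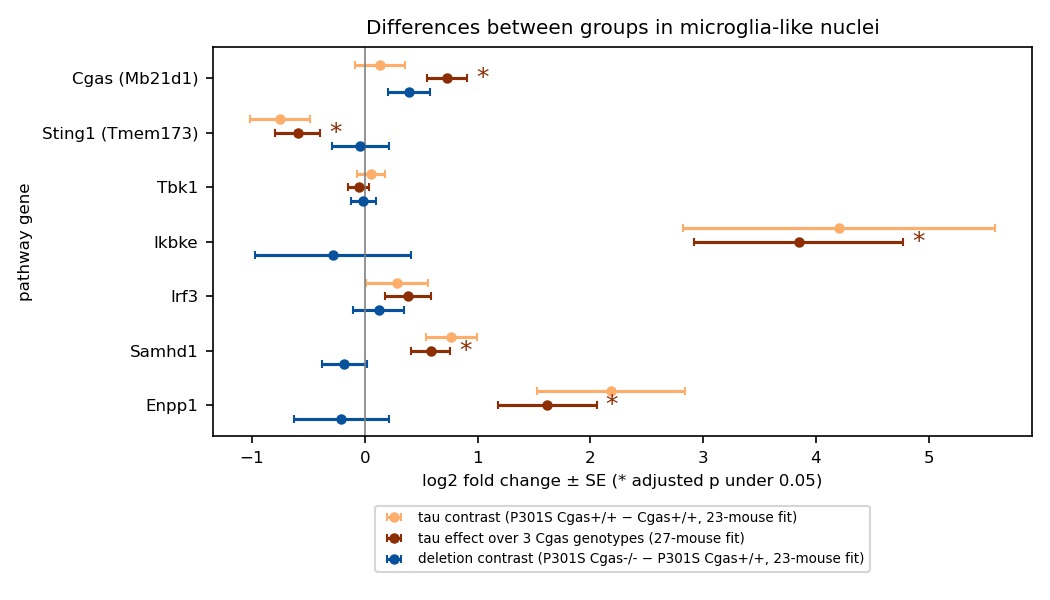
Log2 fold change (horizontal axis) with its standard error for 7 pathway genes (vertical axis) in microglia-like nuclei, for the tau contrast, the tau effect over 3 Cgas genotypes and the deletion contrast, with stars at an adjusted p under 0.05. In the tau effect stars stand at Ikbke (3.85) and Enpp1 (1.62), which passed the filter on low counts through P301S mice only, and at Cgas (0.73), Samhd1 (0.58) and Sting1 (-0.60), and there are none in the other comparisons.

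The make-up of the microglia-like nuclei also differed with the transgene, and its part in the changes of the members was not tested, other than by the values within subclusters given here. Reclustered, these nuclei gave a homeostatic-like subcluster of 7684 nuclei, a disease-associated-like one of 2678 nuclei (markers such as Apoe, Itgax and Cst7) and an interferon-responsive-like one of 218 nuclei, with 669 nuclei unnamed. The disease-associated-like share was at most 0.937% of microglia-like nuclei in the 9 mice without the transgene. It was 29.7 ± 28.1% in P301S Cgas+/+ (n = 6, 0.250 to 73.1%), 27.1 ± 28.7% in P301S Cgas+/- (n = 6, 0 to 77.5%) and 30.1 ± 26.1% in P301S Cgas-/- (n = 6, 3.74 to 70.4%). P301S Cgas+/+ replicate 2 and P301S Cgas+/- replicate 6, the P301S mice with Ikbke not above all 9 others, had shares of 0.250% and 0%. P301S Cgas-/- replicates 6 and 3, with Ikbke only just above at 4.27 and 4.98 CPM, had shares of 17.2% and 3.74%.

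Pooled over all mice, which contributed unequally to each subcluster, and as a description, Ikbke was at 64.1 CPM in disease-associated-like, 64.7 CPM in interferon-responsive-like and 4.09 CPM in homeostatic-like nuclei. Enpp1 was at 34.2, 2.49 and 9.65 CPM in the same order, so it was high in the disease-associated-like nuclei and had 1 UMI in the interferon-responsive-like ones. Samhd1 was highest in the interferon-responsive-like nuclei (530 CPM), against 153 CPM in disease-associated-like and 106 CPM in homeostatic-like nuclei. Cgas was likewise higher there (84.6 CPM, against 41.1 and 37.1 CPM). Sting1 was at 20.03 CPM in disease-associated-like, 34.9 CPM in interferon-responsive-like and 38.5 CPM in homeostatic-like nuclei. Tbk1 was at 145, 129 and 149 CPM and Irf3 at 34.2, 34.9 and 28.3 CPM in the first order. Only P301S Cgas+/+ had mice with at least 20 interferon-responsive-like nuclei (n = 3). In that group Ikbke averaged 51.1 ± 33.03 CPM in disease-associated-like (n = 5) and 39.5 ± 23.2 CPM in interferon-responsive-like nuclei, and Tbk1 168 ± 43.5 and 72.8 ± 39.3 CPM, beside 160 ± 27.2 CPM in homeostatic-like nuclei (n = 6). Pooled within that group, the interferon-responsive-like nuclei were at 47.9 CPM for Ikbke and 91.4 CPM for Tbk1. The levels of these nuclei thus differ with the mice included as well as with pooling.

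In the homeostatic-like nuclei alone, a comparison added after the data were seen, edgeR called 330 genes in the tau effect. The number of genes tested there is not printed, so the members below are described and not set against a share. None of the 5 tested members passed: Cgas stood at 0.66 (adjusted p = 0.0774), Samhd1 at 0.39 (0.166), Sting1 at -0.31 (0.512), Irf3 at 0.22 (0.751) and Tbk1 at 0.000973 (0.999), while Ikbke and Enpp1 fell below the filter on low counts. There Ikbke averaged 0.602 ± 1.35 CPM in Cgas+/+ (n = 5), 1.66 ± 2.34 CPM in Cgas+/- and 2.34 ± 1.55 CPM in Cgas-/- (n = 2 each), and 3.01 ± 4.06, 8.45 ± 5.13 and 3.76 ± 5.12 CPM in P301S Cgas+/+, P301S Cgas+/- and P301S Cgas-/- (n = 6 each). Enpp1 averaged 4.37 ± 1.91, 10.3 ± 7.47 and 7.40 ± 1.69 CPM in the same groups without the transgene, and 11.6 ± 7.36, 12.5 ± 3.96 and 7.06 ± 5.12 CPM in those with it. The P301S means of Ikbke were thus above those without the transgene at each Cgas genotype, and those of Enpp1 at all but Cgas-/-, with overlapping mice and no test. Within disease-associated-like nuclei Ikbke was at 51.1 ± 33.03 CPM (n = 5), 67.3 ± 24.4 CPM (n = 4) and 47.9 ± 16.7 CPM (n = 5) in the same groups, over mice with at least 20 such nuclei.

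**Figure D4:**
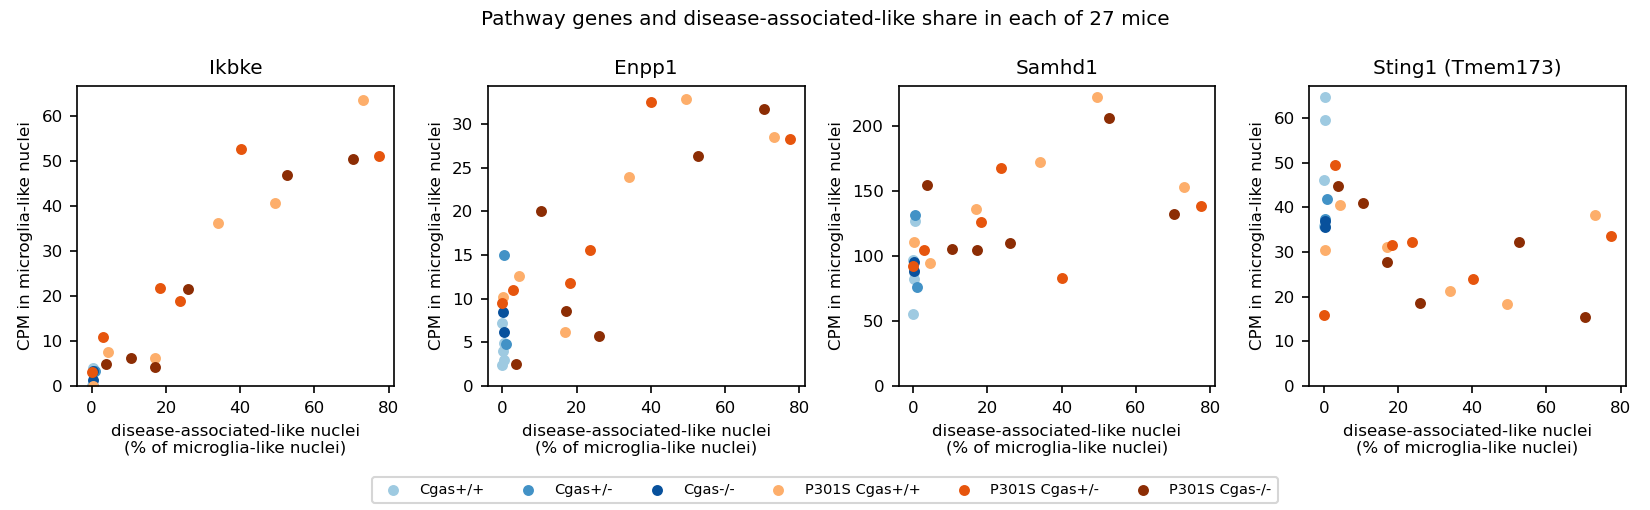
Level in CPM (vertical axes) of Ikbke, Enpp1, Samhd1 and Sting1 in microglia-like nuclei against the disease-associated-like share of those nuclei in percent (horizontal axes), 1 point per mouse, coloured by genotype group. Mice with shares above 30% have Ikbke between 36.1 and 63.5 CPM, while Sting1 lies between 15.9 and 64.7 CPM where the share is below 1% and between 15.5 and 38.3 CPM above 30%, so its ranges overlap.

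To ask whether Cgas deletion changes the pathway genes in tau mice, P301S Cgas-/- was compared with P301S Cgas+/+ (the deletion contrast, 6 mice each). In microglia-like nuclei none of the 7 members passed, and edgeR called 0 of 9091 genes (0.0%), with 229 at an unadjusted p under 0.05 and 0 by DESeq2. In the other 5 classes tested (excitatory and inhibitory neuron-like, astrocyte-like, oligodendrocyte-like and oligodendrocyte progenitor-like) it called 0 of 63793 genes (0.0%), and DESeq2 called 95. Cgas itself was at 51.0 ± 6.90 CPM in microglia-like nuclei labelled P301S Cgas-/- and 38.2 ± 11.7 CPM in P301S Cgas+/+ (log2 difference 0.39 ± 0.187, 95% interval 0.02 to 0.76, edgeR adjusted p = 1.0). Ikbke differed by -0.28 ± 0.692 (95% interval -1.64 to 1.07), Enpp1 by -0.21 (-1.03 to 0.61), Samhd1 by -0.18 (-0.57 to 0.21), Sting1 by -0.04 (-0.53 to 0.45), Tbk1 by -0.01 (-0.23 to 0.21) and Irf3 by 0.12 (-0.33 to 0.57), with edgeR adjusted p of 1.0 each. In oligodendrocyte progenitor-like nuclei Irf3 was at 21.9 and 15.4 CPM (0.49 ± 0.233, edgeR adjusted p = 0.998), with an unadjusted p under 0.05.

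In the heterozygous contrast, which set P301S mice with 1 deleted copy beside those with none, edgeR called 0 of 9091 genes in microglia-like nuclei (0.0%), with 188 at an unadjusted p under 0.05 and 0 by DESeq2, and 4 of 63793 in the other classes (0.00627%), no member among them. DESeq2 called more genes in those other classes, as the closing section gives. The members differed by -0.34 ± 0.202 (Samhd1) to 0.13 ± 0.192 (Cgas) in microglia-like nuclei. Without the transgene, Cgas-/- against Cgas+/+ gave 0 of 9625 genes in microglia-like nuclei (0.0%; 257 at an unadjusted p under 0.05, 0 by DESeq2), and Cgas+/- against Cgas+/+ gave 0 as well (0.0%; 256 at an unadjusted p under 0.05, 1 by DESeq2). Neither gave a call among the 67575 tests of the other classes (0.0%), where DESeq2 called 54 and 0. The Cgas level itself was lower by a log2 difference of -0.31 ± 0.318 in Cgas-/- and -0.94 ± 0.382 in Cgas+/- (edgeR adjusted p = 1.0 each). These groups held 2 mice each and borrowed the spread of the others. The interaction of P301S with Cgas deletion called 0 of 9625 genes in microglia-like nuclei (0.0%; 294 at an unadjusted p under 0.05, 0 by DESeq2), with Cgas at 0.70 ± 0.367 (edgeR adjusted p = 1.0).

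Cgas was also measurable in excitatory neuron-like nuclei, where none of its differences passed edgeR's adjusted test with all mice kept. The deletion contrast, the interaction and the tau effect were negative there and positive in microglia-like nuclei, while the tau contrast was positive in both (0.19 ± 0.214 and 0.14 ± 0.222). Whether the classes differ was not tested. It was at 1.43, 1.73, 1.30, 1.16 and 1.30 CPM in Cgas+/+, 1.21 and 1.75 CPM in Cgas+/-, and 2.06 and 1.53 CPM in Cgas-/-. In P301S mice it ranged from 1.03 to 2.18 CPM (median 1.64) in Cgas+/+, from 0.862 to 1.83 CPM (median 1.25) in Cgas+/- and from 0.754 to 1.35 CPM (median 0.963) in Cgas-/-. The libraries labelled P301S Cgas-/- were thus the lowest as a group and overlapped with both other P301S groups. These levels rest on 83 to 233 UMIs per group. The log2 fold change in the deletion contrast was -0.74 ± 0.207 (edgeR adjusted p = 0.203), in a class where 13.6% of genes had an unadjusted p under 0.05.

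The interaction with P301S was -1.20 ± 0.355 for this gene (edgeR adjusted p = 0.0818, where 18.8% of genes were under 0.05 unadjusted). It passed only without Cgas+/+ replicate 2 (-1.31, adjusted p = 0.0412) and with DESeq2 (-1.21, adjusted p = 0.0324), against a range of 0.0324 to 0.127 over the alternatives. Of all genes in the other 5 classes 4 of 67575 passed the interaction test in the edgeR fit of all mice (0.00592%), no member among them. That count was far higher by DESeq2 and varied widely with 1 mouse left out, as the closing section gives. It is therefore no background for the fits in which Cgas passed. In hippocampal-like excitatory neurons alone the deletion difference was -0.29 (adjusted p = 1.0). Within the tables of software version 3.0.2 Cgas was at 0.870 ± 0.165 CPM in P301S Cgas-/- and 1.503 ± 0.421 CPM in P301S Cgas+/+ (n = 2 each), and within 3.1.0 at 1.05 ± 0.234 and 1.64 ± 0.495 CPM (n = 4 each). Microglia markers summed to 23.4 to 45.7 CPM in these neuron-like nuclei.

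**Figure D5:**
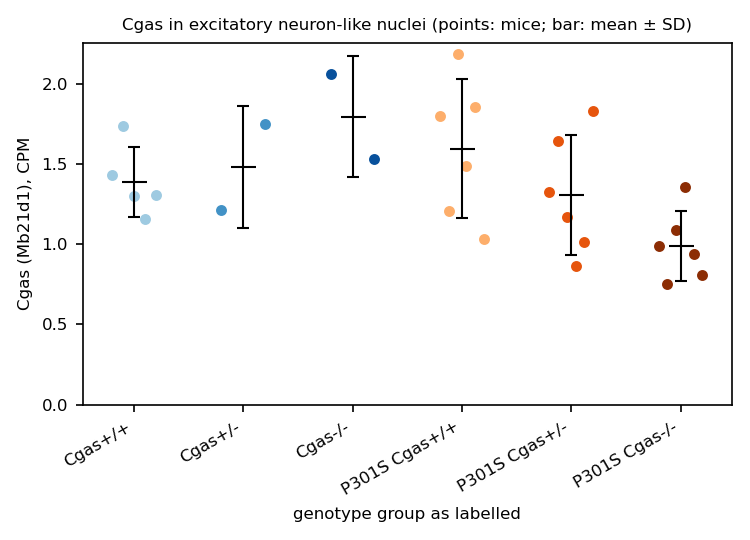
Cgas in CPM (vertical axis) in excitatory neuron-like nuclei of each mouse, by genotype group as labelled (horizontal axis), with 1 point per mouse and bars for the mean ± SD. The 6 libraries labelled P301S Cgas-/- lie between 0.754 and 1.35 CPM, and those labelled P301S Cgas+/+ between 1.03 and 2.18 CPM.

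Outside microglia-like nuclei, no member passed in the tau effect, where edgeR called 816 of 67575 genes in the 5 other classes (1.21%), nor in the tau contrast, where it called 10 of 63793 (0.0157%). The 816 fell to 29 without Cgas+/- replicate 2 and to 32 and 50 without Cgas-/- replicates 1 and 2, ranged from 336 to 1523 in the other fits with 1 mouse left out, and was 2077 by DESeq2. The 10 of the tau contrast was likewise higher by DESeq2 and without the filter on low counts, as the closing section gives. The members with enough counts to test were 6 in excitatory neuron-like, 3 in inhibitory neuron-like, 4 in astrocyte-like, 4 in oligodendrocyte-like and 3 in oligodendrocyte progenitor-like nuclei. In astrocyte-like nuclei Ikbke was at 17.1 CPM in P301S Cgas+/+ and 10.8 CPM in Cgas+/+ (tau contrast 0.60 ± 0.268, edgeR adjusted p = 0.380), and Samhd1 was at 28.3 ± 6.12 CPM in the 18 P301S and 23.4 ± 3.49 CPM in the 9 other mice (tau effect 0.29 ± 0.117, adjusted p = 0.192). In oligodendrocyte-like nuclei Enpp1 was at 21.3 ± 5.94 CPM with and 25.3 ± 5.36 CPM without the transgene (-0.40 ± 0.163, adjusted p = 0.267). In excitatory neuron-like nuclei Cgas was at 1.30 ± 0.418 CPM with and 1.497 ± 0.298 CPM without the transgene (-0.35 ± 0.162, adjusted p = 0.238). These 4 differences had unadjusted p under 0.05 and did not pass the adjustment. Tbk1 was tested in all 5 classes and its tau effect lay between -0.01 and 0.10 on the log2 scale.

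Of 59 listed genes around the pathway 40 were tested in microglia-like nuclei in the tau effect, where 12.2% of all genes passed (8.41% higher and 3.81% lower). All 7 adaptors of Tbk1 and Ikbke were tested, and 3 rose and 1 fell. Optn reached the filter's level in 1 of 9 mice without the transgene and 14 of 18 with it, so it was tested because of the P301S mice. The lists were chosen with earlier results of these data known, so the count of adaptors supports nothing about their list. Optn, a ubiquitin-binding autophagy adaptor, rose from a median of 8.83 to 31.9 CPM (2.01 ± 0.422, edgeR adjusted p = 0.00430). Tank, a scaffold that binds both kinases, rose from 78.7 to 155 CPM (1.11 ± 0.221, adjusted p = 0.00326), and Traf3, a ubiquitin ligase of interferon signalling, from 247 to 336 CPM (0.52 ± 0.125, adjusted p = 0.00826). Tbkbp1, another kinase-binding adaptor, fell from 44.3 to 28.3 CPM (-0.69 ± 0.191, adjusted p = 0.0181). When mice were left out in turn, the calls of Optn and Tank were kept in 27 of 27 fits, that of Traf3 in 26 (lost without Cgas+/- replicate 2, adjusted p = 0.0506) and that of Tbkbp1 in 25 (highest adjusted p 0.0885).

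In the 5 lists other than adaptors and outputs 3 of 29 tested genes passed, a share near the 12.2% over all genes. Of the regulators of cGAS 1 of 6 tested (of 11) rose, G3bp1, a stress granule protein that promotes DNA binding by cGAS (0.39 ± 0.110, edgeR adjusted p = 0.0190, list median 0.12). Of the genes of STING trafficking and turnover 1 of 11 tested (of 15) rose, Rhbdf2, an inactive rhomboid protein that stabilises STING (1.35 ± 0.329, adjusted p = 0.0103, list median 0.14). Of the other nucleases and Aicardi-Goutières genes 1 of 4 tested (of 7) rose, Adar, which edits double-stranded RNA (0.75 ± 0.162, adjusted p = 0.00430, list median 0.54). None of 3 tested genes (of 7) of cGAMP transport and breakdown (median 0.14) and none of 5 genes of mitochondrial DNA and its release (median 0.16) passed. The call was kept in 22 of 27 fits with 1 mouse left out for G3bp1 and in 26 for Rhbdf2 and Adar, both lost without Cgas+/- replicate 2 (adjusted p = 0.0772 and 0.0605).

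Of the pathway's 7 outputs 4 were tested, all of them at or near 0 without the transgene. None of these 4 reached the filter's level in any mouse without the transgene, so they were tested only because of the P301S mice, and their values are given gene by gene and not as a result of the list. Cxcl10, a chemokine, had 0 UMIs in the 9 mice without the transgene and reached 34.6 CPM in P301S mice (median 4.52), with an edgeR adjusted p of 0.0405. Its pooled level was 12.9-fold above a floor of 3 counts over those 9 mice, and the exact 95% lower limit of the pooled ratio was 10.4. Rsad2, an antiviral radical-SAM enzyme, had 5 UMIs against 156 (pooled ratio 8.95, exact 95% counting interval 3.75 to 27.9; edgeR adjusted p = 0.0130). Ifit3, an antiviral RNA-binding family member, had 1 UMI against 93 (pooled ratio 26.7, interval 4.67 to 1065; edgeR adjusted p = 0.0201). Irf7, the interferon-induced relative of Irf3 and the 1 tested gene left, named after its value was seen, did not pass (pooled ratio 6.81, edgeR adjusted p = 0.0505). Pooled over P301S Cgas+/+ mice alone, Cxcl10 was at 8.14, Rsad2 at 10.1, Ifit3 at 7.64 and Irf7 at 7.64 CPM. Over all P301S mice, those with heterozygous or deleted Cgas included, the levels were 8.88, 10.3, 6.12 and 6.25 CPM in the same order. These rises are thus not tied to intact Cgas by the values given here. When mice were left out in turn, the call was kept in 13 of 27 fits for Cxcl10, in 25 of 27 for Rsad2 and in 13 of the 15 that tested Ifit3. In the tau contrast and the deletion contrast none of these 7 lists had a gene that passed in microglia-like nuclei. By unadjusted p, the genes with the smallest in their list were Adar (0.87) and Rnaseh2b (0.81), Tank (1.06) and Traf3 (0.51), Rhbdf2 (1.34) and Copa (0.31), and Rsad2 (2.45) in the tau contrast, given here as log2 fold changes, with edgeR adjusted p of 0.0847 to 0.277. In the deletion contrast they were Tbkbp1 (-0.55) and Sec24c (-0.36), each with an adjusted p of 1.0, and in the interaction the same genes (-1.05 and -0.74, adjusted p = 1.0 each).

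In excitatory neuron-like nuclei 2 of 52 tested listed genes passed in the tau effect, beside 2.44% of all genes. Trim32, a ubiquitin ligase, was 1.19-fold higher in pooled UMIs (0.36 ± 0.0869, edgeR adjusted p = 0.0329, call kept in 20 of 27 fits with 1 mouse left out), and Rsad2 had 131 UMIs against 11 (pooled ratio 6.48, exact 95% counting interval 3.51 to 13.3, edgeR adjusted p = 0.0271, kept in 22 of 27). In astrocyte-like nuclei 4 of 51 passed, beside 2.35% of all genes. Rhbdf2 had 105 UMIs in P301S mice against 9 (pooled ratio 5.96, interval 3.02 to 13.4, edgeR adjusted p = 0.0233), Cxcl10 582 against 22 (13.5, 8.84 to 21.7, 0.0262), Ifit3 425 against 63 (3.44, 2.64 to 4.56, 0.0373) and Irf7 114 against 3 (19.4, 6.47 to 95.5, 0.0233). Rsad2 in the neuron-like and Rhbdf2, Cxcl10 and Irf7 in the astrocyte-like nuclei reached the filter's level in none of the 9 mice without the transgene, and Ifit3 in 1, so they were tested because of the P301S mice and these counts of listed genes support nothing about the lists. With 1 mouse left out, the call was kept in 23 of 27 fits for Rhbdf2, Cxcl10 and Irf7 and in 15 for Ifit3. None passed in inhibitory neuron-like, oligodendrocyte-like or oligodendrocyte progenitor-like nuclei.

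The genes whose level over the 27 mice was most like each member's, as Pearson's r of log2(CPM + 1) and a description only, were sought in the tested class where the member was highest. In microglia-like nuclei (9618 genes compared) Ikbke was most like Sh3bp2 (r = 0.93), Ctse (0.92) and Lyz2 (0.91). Samhd1 was most like Parp14 (0.84), Xaf1 (0.83) and Parp12 (0.83). Sting1 was most like Arhgap27 (0.80), Gm44067 (0.80) and Slc16a6 (0.78), Irf3 like Arhgap30 (0.76), Ptbp1 (0.76) and Cdk9 (0.75), Cgas like Wdr45b (0.75), Rps20 (0.70) and Siglecf (0.70), and Tbk1 like Map2k3 (0.70), Tbc1d31 (0.69) and Faf2 (0.69). For Enpp1 in oligodendrocyte-like nuclei (13009 genes compared) they were Tle1 (0.85), Amph (0.82) and Jph1 (0.80). The points share library, depth and genotype group.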

How the data were processed

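Single nuclei of the hippocampus of 27 mice were profiled with 10x Genomics Chromium 3′ v3 chemistry. The authors aligned reads to mm10, pre-mRNA included, with Cell Ranger (version 3.1.0 per the submitters' notes; 3.0.2 in the headers of 12 tables and 3.1.0 in 15), and deposited raw UMI counts per gene and barcode, which are the unit used here. Of 241938 barcodes, 221281 had 200 to 4000 genes and at most 5% mitochondrial UMIs; the study's own downstream objects were not used here. Scrublet in scanpy 1.11.5 scored doublets in each library and those scoring highest, in proportion to its number of barcodes, were left out (16429 nuclei), leaving 204852. Pairs of libraries shared 8 to 48 barcodes. Nuclei were clustered on 2000 variable genes without the 8 members (30 components, Leiden resolution 1), and 46 of 50 clusters were named where at least 3 markers of 1 type were detected; 4.32% of nuclei stayed unnamed. The naming thresholds were revised after cluster names were seen, before groups were compared.

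Counts were summed per mouse and class and tested with edgeR 4.0.16's quasi-likelihood test (TMM, filterByExpr, robust, sex as a covariate), adjusted over all genes of the class, in 6 classes with at least 20 nuclei in every mouse; endothelial-like nuclei did not meet this. SE is the log2 fold change divided by the square root of F. The fit was tested on simulated data. Alternatives are in the closing section; DESeq2 1.42.0 was one. The 95% intervals of log2 differences are built from the SE. The exact and Poisson intervals of pooled UMIs and the floors cover counting error only. Gene spans come from GENCODE (30934 of 31053 IDs matched) and promoters from RefSeq. All members were named in every class tested; listed pathway genes were named at an adjusted p under 0.05, otherwise up to 2 per list and contrast by unadjusted p. Members, gene lists and tests were chosen with earlier results of these data known.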

Additional observations from a re-analysis of the deposited data

Results flagged for a closer look

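In microglia-like nuclei, Tbk1 in P301S Cgas+/- replicate 2 was at 162 CPM, apart from the other 5 mice of its group, which lay between 122 and 137 CPM. It was the only such value among 32 groups of member levels examined, and chance gives about 1 in 20.

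The effect of Cgas deletion on Cgas in excitatory neuron-like nuclei differed between mice with and without P301S before adjustment: the interaction was -1.20 ± 0.355 on the log2 scale (edgeR adjusted p = 0.0818), 1 of 27 such tests of members. Of all genes in these nuclei 18.8% had an unadjusted p under 0.05 in the interaction, so passing that mark does not set Cgas apart.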

How the results depend on the processing

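No paired analysis was possible because replicate numbers were given in accession order and pair no samples. Under other settings 369 values kept their direction, side of the threshold or count within 1.5 times, 31 counts moved, 6 values were weaker, 6 stronger and 4 turned sign. With 1 mouse left out these were 613, 55, 21, 4 and 15. The cause of the changes below was not tested. Settings of the tau effect, interaction and comparisons without P301S that concern sex, software version, doublets or resolution, and those on subclusters, were chosen after seeing the data.

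In microglia-like nuclei, genes called in the tau contrast numbered 294 by DESeq2, 854 without the filter on low counts, 10 with all 27 mice, 2 without the sex term and 4 with doublets kept, and 0 to 450 with 1 mouse left out (450 without P301S Cgas+/+ replicate 2, 41 without replicate 4). Without the filter they were 22 for deletion, 32 for heterozygosity, 36 for the interaction, 20 for Cgas-/- and 3 for Cgas+/- against Cgas+/+, the last 1 by DESeq2. In the tau effect they were 330 in homeostatic-like nuclei and 290 to 1440 with 1 mouse left out (290 without Cgas+/- replicate 2, 561 and 671 without Cgas-/- replicates 1 and 2).

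In the other 5 classes DESeq2 called 200 genes in the tau contrast, 95 for deletion, 138 for heterozygosity, 2077 in the tau effect, 938 for the interaction and 54 for Cgas-/- against Cgas+/+. Without the filter the tau contrast had 72 and the deletion contrast 9, and without the sex term the tau contrast had 4. The heterozygous contrast had 1 with DESeq2's size factors, without sex, with software version or at resolution 0.5, and 2 with doublets kept. The interaction had 41, 1, 7, 71 and 76 under the same settings in that order. With 1 mouse left out the counts were 5 to 45 (tau contrast), 0 to 3 (deletion), 0 to 14 (heterozygous), 29 to 1523 (tau effect) and 0 to 978 (interaction).

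Of the members in microglia-like nuclei, the tau contrast passed by DESeq2 for Ikbke (4.41) and Enpp1 (2.18), and without the filter for Ikbke (4.26), Enpp1 (2.24) and Samhd1 (0.82). The tau effect no longer passed for Sting1 without sex (-0.44) or with software version (-0.54), nor for Samhd1 with doublets kept (0.51). In homeostatic-like nuclei it did not pass for Cgas (0.66), Samhd1 (0.39) or Sting1 (-0.31). Signs turned there for Cgas in the tau contrast (-0.087) and Tbk1 in the tau effect (0.000973), and in the deletion contrast for Sting1 with doublets kept (0.0149) and Tbk1 by DESeq2 (0.00648). The interaction of Cgas in excitatory neuron-like nuclei passed by DESeq2 (-1.21).

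With 1 mouse left out, the tau contrast ranged from -0.00881 to 0.228 for Cgas, 3.81 to 5.17 for Ikbke, 0.64 to 0.96 for Samhd1 and 1.9601 to 2.48 for Enpp1. The tau effect ranged from 0.63 to 0.85 for Cgas, -0.67 to -0.54 for Sting1, 3.65 to 5.10 for Ikbke, 0.44 to 0.70 for Samhd1 and 1.33 to 1.86 for Enpp1. The deletion contrast ranged from -0.17 to 0.0895 for Sting1, -0.0652 to 0.0671 for Tbk1, -0.63 to 0.10 for Ikbke, -0.0371 to 0.245 for Irf3 and -0.51 to 0.0115 for Enpp1. The interaction of Cgas in excitatory neuron-like nuclei ranged from -1.46 to -0.92.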

Other observations

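Border-associated macrophage-like nuclei were too few for comparisons (141 over all mice), and their pooled levels are given with exact 95% Poisson intervals. Cgas was at 36.3 CPM (8 UMIs, 15.7 to 71.5), Tbk1 at 204 CPM (149 to 273), Samhd1 at 286 CPM (220 to 366), Sting1 at 9.07 CPM (2 UMIs, 1.10 to 32.8) and Enpp1 at 27.2 CPM (6 UMIs, 9.99 to 59.2). Ikbke had 0 of 220478 UMIs (0 to 16.7 CPM).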
